A study of Mus musculus with 44 samples.

Results

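Meiotic prophase is the long stage in which homologous chromosomes find each other, break and repair their DNA and become joined by crossovers. The 36 genes described here encode the machinery of that stage in the mouse, and they were chosen by name, by taking every array probe annotated to them. Of the 36 genes 32 had a probe, 45 probes in all, and 25 had a probe that passed the filter on dim probes, out of 12260 genes tested.

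Cohesin rings made with meiosis-specific subunits hold sister chromatids together and form the chromosome axis, on which the HORMA domain proteins sit. SPO11 then cuts the DNA, strand exchange proteins pair the broken ends with the homologous chromosome, and the synaptonemal complex zips the paired axes together while a few repair sites mature into crossovers. Telomeres are meanwhile tethered to the nuclear envelope, and the RNA-binding partners MEIOC and YTHDC2 act on RNA at the entry into this program. Spermatocytes carry out these steps, and round spermatids are the haploid cells that follow both meiotic divisions.

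RNA was read on 44 single-colour Illumina mouse BeadChip arrays in 8 groups, all from testes of adult mice, and the study design calls the arrays of a group biological replicates. In experiment 1, wild-type mice were set against Th2b+/tag mice, which carry 1 allele whose product, the testis histone TH2B, ends in His, Flag and HA tags. Both genotypes gave 6 arrays of meiotic cells (spermatocytes) and 6 of postmeiotic cells (round spermatids). In experiment 2, wild-type mice were set against th2bkd mice, which the design describes as making no TH2B, and each genotype and cell type had 5 arrays. The labels' genotype entry is headed brdt, which is a different gene, so genotypes were taken from titles and design. The sources used here give neither the way the cells were purified nor whether animals were pooled.

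Levels are log2 intensities after background correction and quantile normalization, and a difference of 1 is a doubling. Each array read between 15997 and 19348 of its 45281 probes above background, and how many arrays a group holds limits the precision. The probe of H2bc1, the TH2B gene, rose above background on 0 of 22 wild-type arrays. On kd-labelled spermatocyte arrays it did so on 5 of 5, at a mean log2 level of 6.61 against 4.61 in wild type. Since the wild-type arrays did not read it above background, it was at least 3.27-fold higher, counting each wild-type array at no less than its dimmest probe above background (adjusted p = 1.0e-13). In kd-labelled spermatids it was above background on 1 of 5 arrays, and the difference did not pass (0.37 ± 0.14, adjusted p = 0.26). Where in the transcript this probe lies is not given, so it cannot show whether TH2B was made. The direction in spermatocytes goes against the name of the group, so the th2bkd libraries are called kd-labelled throughout. The first principal component held 65.6% of the variance over all genes and separated the cell types. The 6 spermatocyte arrays nearest to the spermatids on it were tag arrays 1, 2 and 3 and wild-type arrays 1 and 2 of experiment 1 and kd-labelled array 1. Results were also computed without these 6, and without 4 of them (tag 1 and 2, wild type 1 and kd-labelled 1). Both were unplanned. The set of 4 does not follow the order on the component, where kd-labelled array 1 had rank 6. Defining spermatid markers were high in every group, with Prm1 between 13.95 and 14.70, and those of spermatocytes were too, with Hspa2 between 13.99 and 14.78. Arrays of both cell types thus held RNA of both marker sets.

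Of the 11 genes that could not be tested, 4 had no probe on the array, namely Rad21l, Rnf212, Prdm9 and Majin. The probes of the other 7 were above background on 0 of 44 arrays. These were the axis and central element genes Sycp3, Tex12 and Hormad1, the recombinase gene Dmc1, the crossover helicase gene Hfm1, the repair gene Tex15 and, with all 3 of its probes, the break formation gene Mei4. Textbooks place these genes in spermatocytes, so the 25 measured genes are not the whole machinery. Of the 25, 16 were above background on all 44 arrays, and Trip13, on 12, was the least often detected.

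**Figure D1:**
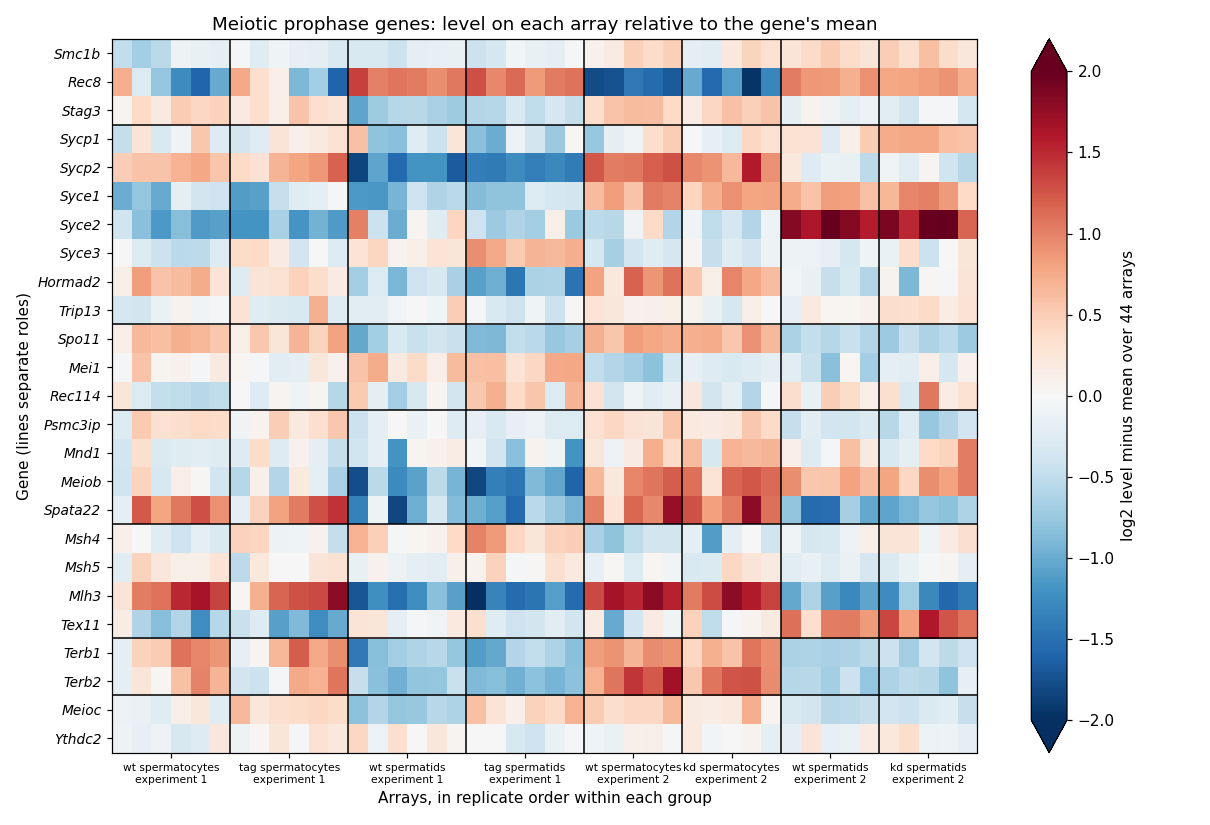
Level of each of the 25 measured genes on each of the 44 arrays, drawn as the log2 difference from that gene's mean over all arrays, with genes ordered by role and arrays by group. The 9 genes that were lower in spermatids in every genotype change colour between the cell types, and the wild-type columns of the 2 experiments differ for Syce1, Syce2 and Meiob.

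The comparison of round spermatids with spermatocytes asked how the RNAs of the prophase machinery differ once meiosis is over. They did not fall as a block. In wild type of experiment 1, 11 of the 25 genes were lower in spermatids, as were 33.7% of all genes, and 7 were higher, as were 27.8%. The other 7 did not pass the test, while 61.5% of all genes passed. In wild type of experiment 2, 10 were lower (35.1% of all genes), 4 higher (26.9%) and 11 did not pass, where 62.0% of all genes passed. The share of prophase genes past the test was therefore near the share of all genes. Their median differences were -0.20 and -0.13 on the log2 scale, beside -0.04 and -0.05 for all genes tested.

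The tag groups gave 12 lower and 7 higher, against 32.3% and 29.6% of all genes, and the kd-labelled groups 10 lower and 8 higher, against 35.1% and 26.8%. Either way, 61.9% of all genes passed in each. Lower in all 4 genotypes were 9 genes, Stag3, Sycp2, Hormad2, Spo11, Psmc3ip, Spata22, Mlh3, Terb1 and Terb2, where 25.4% of all genes did the same. Higher in all 4 were Rec8, Syce2, Msh4 and Tex11, and 20.0% of all genes did this. Syce1, Mnd1 and Msh5 passed in none. The split depended on the scaling. Centring each array on its median gave 12 lower and 3 higher in wild type of experiment 1, 11 and 3 in tag, and 12 and 3 in the kd-labelled groups, and cyclic loess gave 10 lower and 7 higher in wild type of experiment 2. With median centring the calls of Mei1 in tag (0.25), of Rec114 in tag (0.36) and kd-labelled mice (0.39), of Sycp1 (0.37), Smc1b (0.17) and Trip13 (0.30) in kd-labelled mice and of Ythdc2 in wild type of experiment 1 (0.18) did not pass. Nor did those of Msh4 in any of the 4 genotypes. The calls of Tex11 and Psmc3ip in wild type of experiment 1 and in tag, and of Mei1 in wild type of experiment 1, were lost too.

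Median centring moved the median of all genes to -0.15, -0.14, -0.12 and -0.19 in these comparisons (wild type of experiments 1 and 2, tag, kd-labelled). Markers of other cells moved with the stage. The summed level of 13 round spermatid markers was 52370 to 121947 in wild-type spermatocytes and 120882 to 134513 in wild-type spermatids of experiment 1, and 46203 to 60683 against 118063 to 123037 in experiment 2. All 5 Leydig cell markers were lower in spermatids in each genotype, and Cyp17a1, which defines that cell, lay between 10.56 and 12.55 in spermatocytes and between 5.73 and 8.75 in spermatids. Of 6 macrophage and blood markers, 6 were higher in spermatids of wild type in experiment 1, 3 in experiment 2, 3 in tag and 4 in the kd-labelled groups, and none was lower. Of 9 peritubular and vessel markers, 3 were lower and 1 higher in wild type of experiment 1, 6 and 1 in experiment 2, 3 and 4 in tag, and 6 and 1 in the kd-labelled groups. Among all genes 32.3% to 35.1% were lower and 26.8% to 29.6% higher in these comparisons. The part of these cells in the results was not tested, and in such bulk samples fewer cells of a type and less RNA per cell cannot be told apart.

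**Figure D2:**
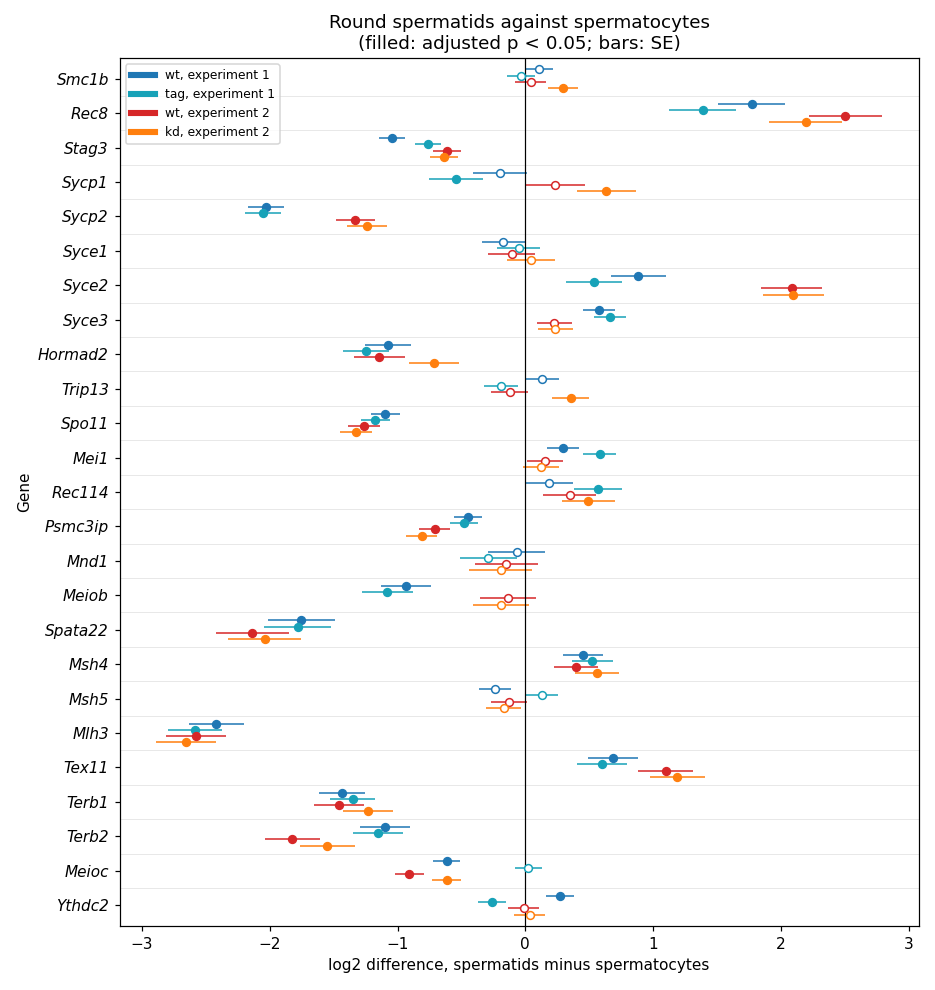
Difference between round spermatids and spermatocytes (log2, spermatids minus spermatocytes) for each of the 25 genes in the 4 genotypes, with bars of 1 standard error. Mlh3 sits farthest to the left in each genotype, with Spata22, Sycp2, Spo11, Terb1 and Terb2 also left of -1, and Rec8 sits farthest to the right. Meioc lies near 0 in tag and left of -0.6 in the other 3 genotypes.

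Promoters of genes that moved in either direction are printed because a letter pattern was found in more of these windows than in those of all genes. The RefSeq starts used here covered 20 of the 25 genes, with 23 promoter windows of 300 bases (250 before and 50 after the start, build GRCm38.p6). Searched on both strands, the E2F-type motif TCCCGC occurred in 13 of the 23 windows (56.5%) and in 20.0% of 32851 windows of all genes. The windows of these genes are rich in CG pairs, with a median of 19 against 7. Among windows with at least 15 CG pairs, the motif was in 11 of 16 (68.8%) and in 45.4% of 11378. Other motifs were found in 4 of 23 (E-box CACGTG, 7.15% of all windows), 1 of 23 (MYB-type CAGTTG, 13.7%) and 4 of 23 (STRA8-type CNCCTCAG, 7.94%). The motifs do not overlap each other in the windows printed here, and capitals mark each match, the E-box and the E2F-type motif of Stag3, 2 E2F-type matches of Terb1, 1 of Rec8, and 1 on the other strand of Meioc. Stag3 and Terb1 were lower in spermatids, Rec8 was higher, and Meioc was higher in both cell types of tag mice. The windows lie at chr5:138280259-138280558 (plus strand, Stag3), chr8:104509838-104510137 (minus strand, Terb1), chr14:55617916-55618215 (plus strand, Rec8) and chr11:102665335-102665634 (plus strand, Meioc).
Stag3: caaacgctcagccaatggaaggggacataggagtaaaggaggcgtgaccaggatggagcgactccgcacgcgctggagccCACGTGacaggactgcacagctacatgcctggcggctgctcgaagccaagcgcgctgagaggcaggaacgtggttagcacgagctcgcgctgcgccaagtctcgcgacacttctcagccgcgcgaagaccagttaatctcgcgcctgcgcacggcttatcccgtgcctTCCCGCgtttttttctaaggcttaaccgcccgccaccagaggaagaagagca
Terb1: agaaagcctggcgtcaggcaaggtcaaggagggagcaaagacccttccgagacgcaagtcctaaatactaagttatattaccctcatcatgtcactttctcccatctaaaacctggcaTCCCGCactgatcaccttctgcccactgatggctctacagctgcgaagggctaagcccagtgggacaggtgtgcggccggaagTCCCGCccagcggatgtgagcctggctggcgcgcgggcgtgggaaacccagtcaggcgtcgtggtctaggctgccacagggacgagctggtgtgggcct
Rec8: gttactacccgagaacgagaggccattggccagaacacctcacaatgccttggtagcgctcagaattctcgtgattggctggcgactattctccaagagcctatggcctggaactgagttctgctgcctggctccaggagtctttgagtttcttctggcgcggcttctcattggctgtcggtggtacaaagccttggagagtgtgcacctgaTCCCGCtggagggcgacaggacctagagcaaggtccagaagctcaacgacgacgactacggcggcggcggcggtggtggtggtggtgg
Meioc: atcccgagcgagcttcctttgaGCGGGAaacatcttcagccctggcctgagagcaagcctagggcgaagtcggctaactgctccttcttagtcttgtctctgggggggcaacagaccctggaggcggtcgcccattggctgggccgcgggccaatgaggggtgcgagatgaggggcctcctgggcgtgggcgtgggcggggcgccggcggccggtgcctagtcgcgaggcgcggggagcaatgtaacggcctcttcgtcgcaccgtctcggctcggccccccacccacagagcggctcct
A match is a description of letters and not a binding site. The E2F-type motif was found both in windows of genes that were lower (Stag3, Terb1, Spata22, Psmc3ip) and of genes that were higher (Rec8, Syce2). It was absent from those of the lower genes Mlh3, Sycp2 and Hormad2 and of the higher gene Msh4.

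The 3 measured subunits of meiotic cohesin went 3 ways. Rec8, which encodes the cleavable kleisin that closes the meiotic ring, was higher in spermatids. In experiment 1 its level in wild-type spermatocytes was 8.24 at the lowest, 8.94 at the median and 10.56 at the highest, and in spermatids 10.76, 10.87 and 11.20. In experiment 2 the 5 wild-type spermatocyte arrays read 8.04, 8.09, 8.41, 8.29 and 8.15 and the 5 spermatid arrays 10.85, 10.69, 10.68, 10.54 and 10.75. The cell types did not overlap in either experiment. The differences were 1.77 ± 0.26 (SE, adjusted p = 1.5e-07) and 2.51 ± 0.29 (adjusted p = 4.6e-10). In tag the difference was 1.39 ± 0.26 and in the kd-labelled groups 2.19 ± 0.29.

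The wide spread of Rec8 in spermatocytes of experiment 1 followed the spermatid markers. The wild-type array at 10.56 had the highest summed spermatid marker level (121947) and the array at 8.24 the lowest (52370). The array at 10.56 was also the highest of its group for spermatogonial (1364), Leydig (15179), peritubular and vessel (3876) and macrophage and blood (306) markers. The part of these cells in the spread was not tested. Without the 4 spermatocyte arrays named above, the Rec8 difference was 2.06 in wild type and 1.82 in tag of experiment 1, and without all 6 nearest to spermatids it was 2.23 and 2.12.

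Stag3, the gene of the meiosis-specific ring subunit that binds the kleisin, was lower in spermatids. Wild-type spermatocytes of experiment 1 spanned 12.53 to 12.98 with a median of 12.88, and spermatids 11.42 to 11.91 with a median of 11.79. In experiment 2 spermatocytes read 12.82, 13.04, 13.10, 13.10 and 12.87 and spermatids 12.29, 12.54, 12.40, 12.28 and 12.35. The cell types were apart in both experiments. The differences were -1.04 ± 0.10 (adjusted p = 5.1e-12) and -0.61 ± 0.11 (adjusted p = 3.7e-06). Smc1b, the meiotic form of the SMC1 arm of the ring, differed by 0.11 ± 0.11 and 0.04 ± 0.12 in the wild types, with overlapping arrays and adjusted p of 0.42 and 0.79. In the kd-labelled groups its difference of 0.29 ± 0.12 passed (adjusted p = 0.031), and did not without kd-labelled spermatocyte array 1 or 2 or spermatid array 1 or 3 (adjusted p 0.0662 to 0.139) or without the 4 or the 6 spermatocyte arrays named above (adjusted p 0.12 and 0.11).

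**Figure D3:**
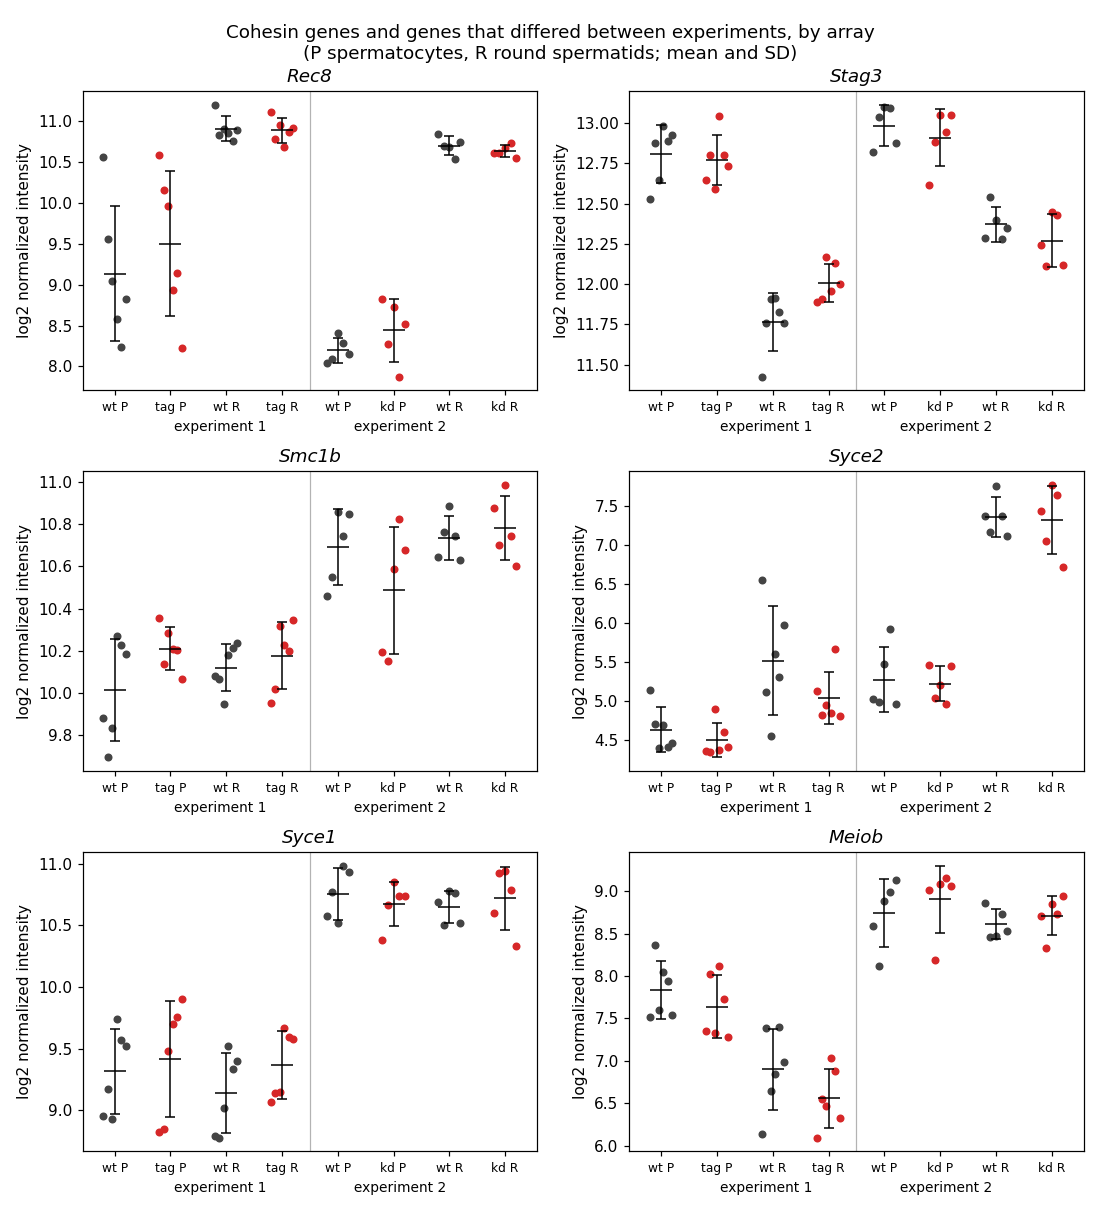
Log2 level of Rec8, Stag3, Smc1b, Syce2, Syce1 and Meiob on each array of the 8 groups, each gene on its own axis, with bars at the group mean and 1 SD to each side. Rec8 and Syce2 sit higher in spermatids and Stag3 lower, Smc1b shows overlapping cell types in the wild types, and Syce1 and Meiob sit higher in experiment 2 than in experiment 1.

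Axis and synaptonemal complex genes also split. Sycp2, which encodes an axial element protein, fell most in this role. In wild type of experiment 1 it lay between 9.40 and 9.68 (median 9.47) in spermatocytes and between 7.08 and 7.86 (median 7.53) in spermatids. In experiment 2 spermatocytes read 10.14, 9.93, 9.96, 10.10 and 10.18 and spermatids 9.11, 8.65, 8.78, 8.75 and 8.38. No spermatid array reached a spermatocyte array. The differences were -2.03 ± 0.14 (adjusted p = 7.4e-16) and -1.33 ± 0.15 (adjusted p = 6.3e-10). Hormad2, a HORMA domain protein that marks unsynapsed axes, was lower in both wild types (-1.07 ± 0.18 and -1.14 ± 0.20).

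Syce2, a central element gene, rose. Its probe was above background on 1 of 6 wild-type spermatocyte arrays of experiment 1 and 5 of 6 spermatid arrays, with 4.39, 4.57 and 5.14 against 4.55, 5.46 and 6.55 (lowest, median, highest). In experiment 2 all arrays were above background, with spermatocytes at 5.02, 4.99, 5.47, 5.93 and 4.96 and spermatids at 7.37, 7.17, 7.76, 7.38 and 7.12. The arrays overlapped in experiment 1 and not in experiment 2. The differences were 0.88 ± 0.22 (adjusted p = 4.6e-04) and 2.09 ± 0.24 (adjusted p = 4.0e-10). In tag it was 0.54 ± 0.22 (adjusted p = 0.029), a call that did not pass without tag spermatocyte array 2 or 4 or tag spermatid array 5 (adjusted p 0.0521 to 0.105), nor without the 4 or the 6 spermatocyte arrays named above (0.47 and 0.58, adjusted p = 0.089 and 0.057). It did not pass without background correction either (0.19, adjusted p = 0.065).

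Syce3, another central element gene, was higher in spermatids of wild type in experiment 1 (0.57 ± 0.13, adjusted p = 1.0e-04) and of tag (0.66 ± 0.13). In experiment 2 it differed by 0.23 ± 0.14 in wild type (adjusted p = 0.15) and by 0.23 ± 0.14 in the kd-labelled groups. Syce1, the third measured central element gene, differed by -0.17 ± 0.17 and -0.11 ± 0.19 in the wild types. Its arrays overlapped between the cell types within each experiment.

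Sycp1, the transverse filament gene, read close to background, between 4.48 and 6.25, and was above it on 38 of 44 arrays. Its stage differences passed in tag (-0.54 ± 0.21, adjusted p = 0.025) and, in the other direction, in the kd-labelled groups (0.63 ± 0.23, adjusted p = 0.016), and not in either wild type. The tag call did not pass without any 1 of tag spermatocyte arrays 3 and 6 and tag spermatid arrays 1, 2 and 5 (adjusted p 0.0527 to 0.0774), and the kd-labelled call without kd-labelled spermatocyte array 3 (0.0507). Trip13, whose ATPase remodels HORMA domain proteins, was above background on 12 of 44 arrays, and it passed in the kd-labelled groups alone (0.36 ± 0.15, adjusted p = 0.032), a call lost without 1 of 5 of its 10 arrays (adjusted p 0.0524 to 0.105).

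In the break formation role, Spo11, which encodes the nuclease that cuts the DNA, was lower in spermatids. Wild-type spermatocytes of experiment 1 spanned 11.59 to 12.17 and spermatids 10.43 to 11.15, and the groups of experiment 2 spanned 12.02 to 12.29 and 10.83 to 11.01. The cell types did not overlap. The differences were -1.10 ± 0.11 (adjusted p = 5.5e-11) and -1.26 ± 0.12 (adjusted p = 1.4e-11). A different Spo11 probe, above background on 33 of 44 arrays, differed by 0.03 ± 0.18 and -0.23 ± 0.20, and the third was not above background on any array, so the probes of this gene disagreed. Mei1, needed for break formation, rose in wild type of experiment 1 (0.30 ± 0.13, adjusted p = 0.042), where median centring turned it to -0.02, and in tag (0.58 ± 0.13). The experiment 1 call did not pass without any 1 of wild-type spermatocyte arrays 1, 3, 4, 5 and 6 and spermatid arrays 1, 2 and 6 (adjusted p 0.0526 to 0.125). Rec114, a partner of MEI4, was above background on 24 of 44 arrays and was higher in spermatids of tag (0.57 ± 0.19, adjusted p = 0.0081) and of kd-labelled mice (0.49 ± 0.21, adjusted p = 0.036), the latter lost without 1 of 6 of its 10 arrays (adjusted p 0.0526 to 0.198).

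The measured strand exchange and strand protection genes, Spata22, Meiob, Psmc3ip and Mnd1, were lower or did not pass. None was higher in any genotype, where 26.8% to 29.6% of all genes were. These genes are too few to set against that share. Spata22, which with MEIOB protects single-stranded DNA at repair sites, showed the largest fall of this role. In wild type of experiment 1 it lay at 6.10, 7.28 and 7.58 in spermatocytes and at 4.48, 5.37 and 6.20 in spermatids (lowest, median, highest). In experiment 2 spermatocytes read 7.30, 6.57, 7.45, 7.25 and 8.04 and spermatids 5.50, 4.75, 4.78, 5.63 and 5.26. One wild-type spermatocyte array of experiment 1, array 1, lay within the spermatid range, and experiment 2 had no overlap. The differences were -1.75 ± 0.26 (adjusted p = 1.8e-07) and -2.14 ± 0.29 (adjusted p = 1.6e-08). Only 4 of 6 and 3 of 5 wild-type spermatid arrays were above background, which limits these sizes. Across the other settings they came as close to 0 as -0.77 and -0.94, and the calls passed in each.

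Its partner Meiob was past the test in experiment 1 alone, lower in spermatids at -0.93 ± 0.20 in wild type (adjusted p = 7.4e-05) and -1.08 ± 0.20 in tag. In experiment 2 Meiob differed by -0.13 ± 0.22 in wild type (adjusted p = 0.63), with spermatocytes at 8.59, 8.12, 8.89, 8.99 and 9.13 and spermatids at 8.86, 8.46, 8.48, 8.73 and 8.54. The test of the difference between the wild types gave 0.80 ± 0.30 (adjusted p = 0.19). It passed with the replicate number as a block (0.80, adjusted p = 0.0095), a pairing taken from the correlations of these same arrays. That block also joined wild-type with kd-labelled spermatids of the same number, whose correlations were -0.054 to 0.143. It is therefore not an independent check. Psmc3ip, the gene of the HOP2 cofactor of strand exchange, was lower in all 4 genotypes, with differences between -0.45 and -0.81. Median centring ended its call in wild type of experiment 1 (-0.26, adjusted p = 0.092) and in tag (-0.29, adjusted p = 0.057). Mnd1, whose product binds HOP2, differed by -0.07 ± 0.23 and -0.15 ± 0.25 in the wild types.

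Among the crossover genes, Mlh3, whose product cuts crossover intermediates, showed the largest fall of all 25. Wild-type spermatocytes of experiment 1 lay at 7.68, 8.64 and 9.07 and spermatids at 5.71, 6.18 and 6.58 (lowest, median, highest). In experiment 2 spermatocytes read 8.74, 9.08, 8.93, 9.22 and 8.95 and spermatids 6.40, 6.81, 6.34, 6.13 and 6.36. The arrays were fully apart. The differences were -2.42 ± 0.21 (adjusted p = 7.3e-13) and -2.58 ± 0.23 (adjusted p = 1.4e-12), and in tag and the kd-labelled groups -2.58 ± 0.21 and -2.66 ± 0.23. Another Mlh3 probe was lower too, at values between -1.24 and -1.64 over the 4 genotypes. The third was above background on 20 spermatocyte arrays and on 0 of 22 spermatid arrays, so no size is given for it.

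Msh4, which encodes one part of the clamp that stabilises crossover intermediates, went the other way, at 0.45 ± 0.16 and 0.40 ± 0.17 in the wild types (adjusted p = 0.012 and 0.043). The experiment 2 value did not pass when any 1 of 6 of its 10 arrays was left out (spermatocyte arrays 1, 2 and 3 and spermatid arrays 1, 4 and 5, adjusted p 0.0550 to 0.117). With median centring Msh4 passed in none of the 4 genotypes, at 0.04 and 0.07 in the wild types, 0.14 in tag and 0.16 in the kd-labelled groups. Msh5, the other part of the clamp, did not pass with the probe used (-0.24 ± 0.13 and -0.13 ± 0.14), except in experiment 1 with the replicate number as a block (adjusted p = 0.043). Another of its 4 probes was lower in both wild types (adjusted p = 0.021 and 0.018). That probe was above background on 0 of 6 wild-type spermatid arrays of experiment 1, so no size is given for it there. In experiment 2 it differed by -0.47 ± 0.18. The remaining Msh5 probes did not pass in either wild type. The probe above background on all 44 arrays differed by -0.15 ± 0.13 and -0.12 ± 0.15. The probe above background on 24 arrays differed by -0.21 ± 0.14 and 0.01 ± 0.15. Tex11, an X-linked crossover gene, was higher by 0.69 ± 0.20 (adjusted p = 0.0024) and 1.10 ± 0.22 (adjusted p = 2.2e-05). Median centring ended its calls in wild type of experiment 1 (0.34, adjusted p = 0.20) and in tag (0.27, adjusted p = 0.31).

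Telomere attachment was covered by Terb1 and Terb2, whose products tie telomeres to the nuclear envelope, and both were lower in spermatids. Terb1 spanned 8.67 to 9.93 in wild-type spermatocytes and 7.43 to 8.31 in spermatids of experiment 1, and 9.53 to 9.79 against 8.21 to 8.32 in experiment 2. No array of one cell type entered the range of the other. The differences were -1.44 ± 0.18 (adjusted p = 4.3e-09) and -1.46 ± 0.20 (adjusted p = 1.9e-08). Its other probe, above background on 8 of 44 arrays, differed by 0.00 ± 0.12 and -0.13 ± 0.14. Terb2 was above background on every spermatocyte array and on 0 of 6 and 0 of 5 wild-type spermatid arrays, so its size is a bound. It was at least 1.66-fold lower in experiment 1 (adjusted p = 4.4e-06) and at least 2.98-fold lower in experiment 2 (adjusted p = 7.8e-10), taking for each spermatid array the higher of its dimmest probe above background and the Terb2 signal.

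Of the genes that act on RNA at entry, Meioc was lower in spermatids of both wild types, at -0.62 ± 0.10 (adjusted p = 1.9e-06) and -0.91 ± 0.11 (adjusted p = 4.0e-09), and of the kd-labelled mice (-0.62 ± 0.11). In tag it differed by 0.02 ± 0.10 (adjusted p = 0.86). Ythdc2, the gene of the helicase that MEIOC binds, was above background on 14 of 44 arrays and differed by 0.27 ± 0.11 and -0.01 ± 0.12 in the wild types. Its call in experiment 1 (adjusted p = 0.034) did not pass without any 1 of 6 of its 12 arrays, spermatocyte arrays 2, 4 and 5 and spermatid arrays 1, 3 and 5 (adjusted p 0.0546 to 0.103). In tag it was lower in spermatids (-0.26 ± 0.11, adjusted p = 0.041), a call likewise lost without 1 of 6 of its 12 arrays.

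The comparison of tag with wild type asked whether a tagged TH2B changes these RNAs. Meioc was higher in both cell types of tag mice, and Syce3 and Rec114 were higher in tag spermatids. In spermatocytes 1 of the 25 genes was higher and none lower, against 5.39% of all genes, and in spermatids 3 were higher and none lower, against 16.2%. The median difference of the 25 genes was -0.02 in spermatocytes and -0.05 in spermatids, beside -0.03 and -0.04 for all genes.

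**Figure D4:**
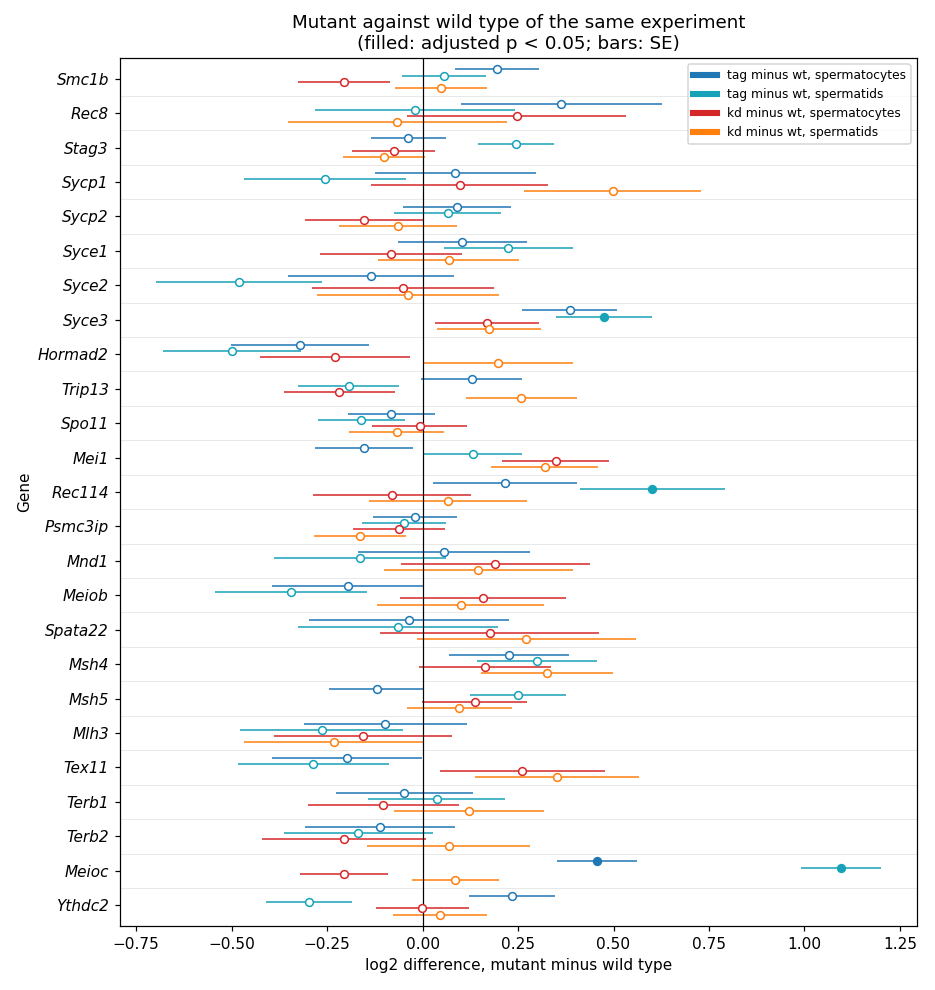
Difference from wild type (log2) of each of the 25 genes in tag and in kd-labelled mice, with bars of 1 standard error, for spermatocytes and for round spermatids. Meioc in tag spermatids, at 1.10, stands farthest from 0, and no kd-labelled gene passes the test.

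Meioc in spermatocytes lay at 8.48, 8.60 and 8.96 in wild type and at 8.95, 9.10 and 9.37 in tag (lowest, median, highest). In spermatids it lay at 7.91, 8.05 and 8.18 in wild type and at 8.83, 9.15 and 9.42 in tag. The spermatid groups were fully apart, and in spermatocytes the lowest tag array was just under the highest wild-type array. The differences were 0.46 ± 0.10 in spermatocytes (adjusted p = 0.0032) and 1.10 ± 0.10 in spermatids (adjusted p = 2.2e-11). The effect was larger in spermatids by 0.64 ± 0.15 (adjusted p = 0.0066), a test that 2.50% of all genes passed.

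The spermatocyte call did not pass with median centring (0.42, adjusted p = 0.076), with only the arrays of that comparison fitted (adjusted p = 0.074) or without the 6 spermatocyte arrays nearest to spermatids (0.42, adjusted p = 0.14). The difference between cell types did not pass with median centring either (0.70, adjusted p = 0.065). The spermatid call passed under each of the other settings and without any 1 array, with values between 0.87 without background correction and 1.16 without tag spermatid array 3.

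Syce3 spanned 11.93 to 12.29 (median 12.12) in wild-type spermatids and 12.38 to 12.79 (median 12.56) in tag spermatids. These groups were apart as well, and Meioc and Syce3 were the only 2 of the 25 genes whose tag spermatid arrays all lay above wild type, as 6.23% of all genes did. The difference was 0.47 ± 0.13 (adjusted p = 0.0051), and in spermatocytes 0.39 ± 0.13 (adjusted p = 0.064). Rec114 was near background, with 4.35, 4.78 and 5.57 in wild-type and 4.77, 5.59 and 5.76 in tag spermatids, above it on 2 of 6 and 5 of 6 arrays. The groups overlapped. The difference was 0.60 ± 0.19 (adjusted p = 0.021). It fell to 0.18 without background correction, did not pass with median centring (0.51, adjusted p = 0.079), and did not pass without tag spermatid array 2 or 6 or wild-type spermatid array 3 (adjusted p 0.0555 to 0.0785).

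With the replicate number as a block, 2 genes passed in spermatocytes, Meioc and Syce3 (0.39, adjusted p = 0.024). That block rests on correlations of these same arrays and is not an independent check. In spermatids 7 passed with the block, 4 higher and 3 lower, the added ones being Stag3 (0.24, adjusted p = 0.038), Hormad2 (-0.50, 0.0072), Meiob (-0.34, 0.043) and Ythdc2 (-0.30, 0.049). All genes passed at 7.74% and 22.8% with the block. Markers of other cells moved beside these results. Zbtb16, which defines spermatogonia, was 0.67 higher in tag spermatocytes (adjusted p = 0.0010) and 2.09 higher in tag spermatids (adjusted p = 5.0e-16), while no other of the 8 measured spermatogonial markers passed in either. Their summed level was 742 to 1179 in wild-type and 811 to 1295 in tag spermatids. In tag spermatids 2 of 9 peritubular and vessel markers were higher, and of 6 macrophage and blood markers 1 was higher and 1 lower. Of all genes 16.2% passed in that comparison, so these counts alone do not show that such cells differed. The part of these markers in the results was not tested.

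**Figure D5:**
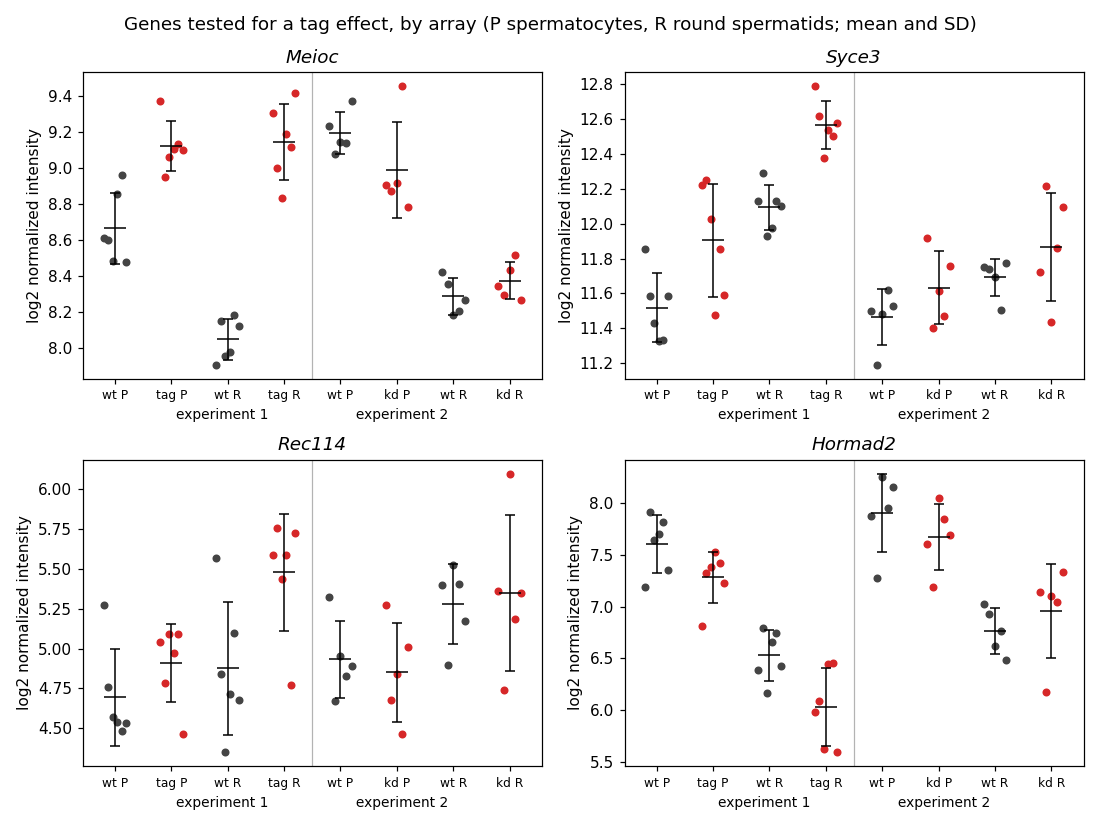
Log2 level of Meioc, Syce3, Rec114 and Hormad2 on each array of the 8 groups, each gene on its own axis, with bars at the group mean and 1 SD to each side. The tag spermatid arrays of Meioc lie between 8.83 and 9.42, above all wild-type spermatid arrays of experiment 1, and those of Syce3 between 12.38 and 12.79.

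The comparison of kd-labelled with wild-type mice asked whether these RNAs change where TH2B is said to be missing. None of the 25 genes passed in spermatocytes (1.56% of all genes did) or in spermatids (1.89%). At an unadjusted p under 0.05, 1 gene was higher and none lower in spermatocytes, where 12.7% of all genes were past it, and 2 were higher and none lower in spermatids (10.3%). The fitted differences ran from -0.23 to 0.35 in spermatocytes and from -0.23 to 0.50 in spermatids, with standard errors from 0.11 to 0.29. The medians were -0.05 and 0.09, beside 0.00 in both cell types for all genes. The kd-labelled effect differed between cell types for none of the 25 genes (0.0489% of all genes), with 1 at an unadjusted p under 0.05 (4.14% of all genes).

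Mei1 was the gene nearest to the threshold in spermatocytes. Its wild-type arrays read 5.07, 4.98, 4.88, 4.75 and 5.22 and its kd-labelled arrays 5.41, 5.30, 5.26, 5.31 and 5.37, so the groups did not overlap, as was so for 1.48% of all genes with the kd-labelled group higher. The difference was 0.35 ± 0.14 (adjusted p = 0.25), and 3 of 5 wild-type and 5 of 5 kd-labelled arrays were above background. In spermatids it was 0.32 ± 0.14 (adjusted p = 0.37), with overlapping arrays. Sycp1 in spermatids read 5.77, 5.76, 5.22, 5.59 and 5.98 in wild type and 6.21, 6.24, 6.25, 6.07 and 6.04 in kd-labelled mice, again without overlap (2.28% of all genes), and differed by 0.50 ± 0.23 (adjusted p = 0.44).

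The kd-labelled spermatocytes differed from wild type in markers of other cells. Of 9 peritubular and vessel markers 6 were higher, with a summed level of 2568 to 10935 against 741 to 2059, and Acta2, which defines peritubular cells, lay between 10.81 and 13.02 against 8.77 and 10.52. Of 5 Sertoli cell markers 1 was higher (0.97, adjusted p = 0.034). Of all genes 1.56% passed in this comparison. The part of these cells in the values of kd-labelled spermatocytes was not tested.

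Wild-type mice of the 2 experiments were also set against each other, a comparison added after the data were seen, in which experiment, colony and array run cannot be told apart. In spermatocytes 7 of the 25 genes were higher in experiment 2 and 2 lower (25.8% of all genes passed), and in spermatids again 7 higher and 2 lower (27.8%). With median centring, which moved the median of all genes to 0.13 and 0.14, the splits were 13 higher and 1 lower, and 9 higher and 1 lower. Higher in both cell types were Smc1b, Sycp2, Syce1, Syce2 and Meiob, and Mei1 was lower in both. The Syce2 call in spermatocytes depended on single arrays, as given below. The shares of all genes by direction, or past the test in both cell types, are not given here. These splits are therefore not shown to be particular to the 25 genes.

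Syce1 differed most evenly. Its wild-type spermatocytes lay at 8.93, 9.35 and 9.74 in experiment 1 (lowest, median, highest) and at 10.57, 10.77, 10.52, 10.98 and 10.94 in experiment 2. Its spermatids lay at 8.78, 9.18 and 9.52, and at 10.69, 10.50, 10.78, 10.76 and 10.52. Neither cell type overlapped between experiments. The differences were 1.44 ± 0.18 (adjusted p = 3.6e-08) and 1.51 ± 0.18 (adjusted p = 7.7e-09).

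The wild types also differed in Syce2 and Meiob in both cell types. Syce2 was higher in experiment 2 by 0.64 ± 0.23 in spermatocytes and 1.84 ± 0.23 in spermatids, and Meiob by 0.91 ± 0.21 and 1.71 ± 0.21. The Syce2 call in spermatocytes did not pass without any 1 of 5 of its 11 arrays (adjusted p 0.0568 or more). Nor did it pass under 3 of 10 other settings. The Syce2 probe was above background on 1 of 6 wild-type spermatocyte arrays of experiment 1. This limits the sizes given here for Syce2. The step of Syce2 between cell types was larger in experiment 2 by 1.20 ± 0.32 (adjusted p = 0.040, 1.67% of all genes), the only 1 of the 25 genes past that test. That call did not pass when any 1 of 12 of the 22 arrays was left out (adjusted p 0.0564 to 0.0962, values 1.01 to 1.41). It did not pass without the 4 or the 6 spermatocyte arrays named above either (adjusted p = 0.067 and 0.11). The replicate block added Sycp2 and Meiob to it. Of the 13 spermatid markers 8 were lower in wild-type spermatocytes of experiment 2, whose summed spermatid marker level was 46203 to 60683 against 52370 to 121947, and the part of these cells in the differences was not tested.

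A list of 55 further genes of meiotic cohesin, recombination and telomere movement held 35 measured genes. Of these 19 were lower and 3 higher in spermatids of wild type in experiment 1, beside 33.7% and 27.8% of all genes, and 23 lower and 3 higher in experiment 2, beside 35.1% and 26.9%. The medians were -0.38 and -0.62. Lowest in both were Sgo2a, which shields centromeric cohesin (-3.12 ± 0.18 and -3.03 ± 0.20), the crossover-associated kinase gene Cdk2 (-3.09 ± 0.18 and -3.21 ± 0.20) and the recombination factor gene Fignl1 (-2.66 ± 0.21 and -2.67 ± 0.23). Each had an adjusted p of 2.6e-13 or less. Higher in both were the cohesin gene Stag2 (0.83 ± 0.17 and 0.86 ± 0.18) and the nuclease gene Mus81 (0.85 ± 0.11 and 0.68 ± 0.12). In tag spermatids Brca2, which loads recombinases, was lower (-0.46 ± 0.10, adjusted p = 9.4e-04), and in kd-labelled spermatocytes Hsf2bp, whose product binds BRCA2, was lower (-0.68 ± 0.14, adjusted p = 0.0030). No other gene of the list passed in a comparison of genotypes. Of all genes, 5.39% passed in tag spermatocytes, 16.2% in tag spermatids, 1.56% in kd-labelled spermatocytes and 1.89% in kd-labelled spermatids. Whether the 2 calls are linked was not tested.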

How the data were processed

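Per the file headers, the deposited raw table holds a mean intensity over beads for every probe and array (44 arrays), not normalized, beside a detection p-value against negative control beads. The deposited processed table holds an intensity that the authors had quantile normalized without subtracting background, as its values show (array medians 104.3 to 104.4). It was used as an alternative.

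The raw intensities were background corrected by normexp on the detection p-values (offset 16), quantile normalized and taken to log2 (neqc, limma 3.58.1, R 4.3.3). Of 45281 probes, 22605 with detection p under 0.05 on at least 5 arrays were kept, and 18813 of these had 1 gene name. Names came from the platform annotation, in which 34885 probes have 1 gene, 18 several and the rest none. A gene was read from its kept probe of highest mean. All 12260 genes were fitted in one limma model of 8 groups, with two-sided tests, Benjamini-Hochberg adjustment over all genes and a threshold of 0.05. Errors of differences are standard errors.

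All 36 genes could be named. Per-array values are given for genes past the threshold in a genotype comparison, for up to 4 genes with the largest fall and up to 4 with the smallest change or a rise between cell types, and for others whose groups did not overlap. The genes and lists were chosen with earlier results of these data known, and members were not tested as a set.

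Replicate numbers were checked by correlating deviations from group means. Every pair exceeded 0.1 for wild-type with tag spermatocytes (0.233 to 0.857) and wild-type with tag spermatids (0.156 to 0.416). The same held for wild-type spermatocytes with spermatids in each experiment (0.128 to 0.570 and 0.188 to 0.346). The array of the same number was the best match for 3 of 6, 4 of 6, 5 of 6 and 5 of 5 pairs, in that order. The labels do not say what a number marks. The pairing thus rests on these correlations, which do not show it for every array. Wild-type with kd-labelled pairs ran from -0.061 to 0.397 in spermatocytes and from -0.054 to 0.143 in spermatids. Tag spermatocytes with tag spermatids ran from -0.030 to 0.462, and the same number was the best match for 2 of 6 pairs. Kd-labelled spermatocytes with kd-labelled spermatids ran from 0.030 to 0.464, with the same number best for 3 of 5. The pairing was thus not shown in the tag groups between cell types either. The block fits an effect per number over all groups of an experiment. No 2 arrays held identical values. The fit was tested on simulated data with known changes.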

Additional observations from a re-analysis of the deposited data

Results flagged for a closer look

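Of 158 combinations of a gene and a group with 5 or 6 arrays, 13 had 1 array far from the rest by Dixon's test, which chance does in about 1 of 20. Wild-type spermatocyte array 1 of experiment 1 was the lowest for Spo11 (11.59, the others from 11.99), Psmc3ip (12.15, the others from 12.72) and Spata22 (6.10, the others from 7.09). It had the highest summed level of its group for spermatid markers (121947). The same held for its spermatogonial, Leydig, peritubular and vessel, and macrophage and blood markers. Wild-type spermatid array 1 of experiment 1 stood apart for Rec8 (11.20, the others up to 10.90), Stag3 (11.42, the others from 11.76) and Terb1 (7.43, the lowest of the 6). Wild-type spermatocyte array 2 of experiment 1 was high for Mei1 (6.14, the others up to 5.74) and Mnd1 (6.02, the others up to 5.47). Kd-labelled spermatocyte array 2 was low for Mnd1 (5.37, the others from 6.33) and Meiob (8.19, the others from 9.02), and array 4 was high for Meioc (9.46, the others up to 8.92). Kd-labelled spermatid array 2 was low for Hormad2 (6.17, the others from 7.05), and tag spermatid array 1 was high for Tex11 (6.65, the others up to 6.11).

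For 2 genes an effect differed between groups by a test of the difference itself. The tag effect on Meioc was 0.64 larger in spermatids than in spermatocytes (adjusted p = 0.0066), and the step of Syce2 from spermatocytes to spermatids was 1.20 larger in wild type of experiment 2 than of experiment 1 (adjusted p = 0.040).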

How the results depend on the processing

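Over 12 other settings, 1025 of 1080 values of the 93 calls kept their direction and side of the threshold, 54 did not pass and 1 changed sign, Mei1 between cell types in wild type of experiment 1 (-0.021 with median centring). Counts of changed genes moved past 1.5 times in these cases, and the cause was not tested. For tag spermatocytes (1 gene) the count was 0 with median centring, with only the compared arrays fitted and without the 6 spermatocyte arrays nearest to spermatids, and 2 with the replicate block. For tag spermatids (3) it was 7 with the replicate block. For the tag effect between cell types (1) it was 0 with median centring and 2 without 4 of those 6 arrays. For wild-type spermatocytes between experiments (9) it was 14 with median centring. For the step between cell types between experiments (1) it was 2 with cyclic loess, 3 with the replicate block, and 0 with a stricter filter, with no filter, with only the compared arrays fitted and without the 6 arrays. The stricter filter measured 20 of the 25 genes. Apart from the changes given here and in the results, the replicate block changed no call. In both kd-labelled comparisons, where not every pair exceeded 0.1, it left 0 genes past the test.

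Leaving out 1 array at a time, 985 of 1056 values kept their call and 71 did not pass. The counts ran from 16 to 18 between cell types in wild type of experiment 1, 13 to 14 in experiment 2, 16 to 19 in tag and 15 to 18 in the kd-labelled groups. They ran from 1 to 2 in tag spermatocytes (2 without wild-type array 1 or tag array 4 or 6), 2 to 4 in tag spermatids, 1 to 2 for the tag effect between cell types (2 without wild-type spermatocyte array 6, tag spermatocyte array 1 or wild-type spermatid array 2), and 0 to 0 in the kd-labelled comparisons. Between wild types of the experiments they ran from 8 to 10 in spermatocytes, 8 to 11 in spermatids and 0 to 2 for the step. Slide could not be used as a block because the files name none. Signal over background limits Syce2, Sycp1, Trip13, Mei1, Rec114, Mnd1, Spata22, Terb2 and Ythdc2, and 7 genes had no signal above it.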
